A study of Homo sapiens with 3 samples.

Results

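The genes described here encode 8 transcription factors of families linked to epithelial-mesenchymal transition (EMT): SNAI1, SNAI2, SNAI3, ZEB1, ZEB2, TWIST1, TWIST2 and PRRX1. They were chosen by name, from 20162 protein-coding genes on the chromosomes examined. Their chromatin was examined in PANC-1, an established human pancreatic carcinoma cell line, by chromatin immunoprecipitation and sequencing (ChIP-seq). The cells were wildtype and no treatment was listed. There was 1 library with an antibody against PHF13, 1 with an antibody against EZH2 and 1 of input chromatin. All 3 came from cells crosslinked with EGS, paraformaldehyde and formaldehyde. Only the 2 peak lists were analysed here. No library had a replicate, so each value below describes these libraries, no test between the antibodies was made, and no p-value across genes is given.

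EMT is the process by which epithelial cells lose their junctions and polarity and become migratory, and in carcinomas it is linked to invasion. SNAI1, SNAI2 and SNAI3 are zinc-finger repressors that bind E-box sequences, and SNAI1 and SNAI2 silence the E-cadherin gene. ZEB1 and ZEB2 are zinc-finger and homeodomain proteins that bind similar E-boxes and are held down by the miR-200 family. TWIST1 and TWIST2 are basic helix-loop-helix factors, and PRRX1 is a paired-related homeodomain factor of mesenchyme. EZH2 is the catalytic subunit of Polycomb repressive complex 2, which methylates lysine 27 of histone H3 and is known for covering the CpG-rich starts of silent developmental genes. PHF13 is a PHD-finger protein that binds methylated lysine 4 of histone H3, a mark of active starts.

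To ask whether either protein was found at these genes, every peak within 5 kb of any annotated transcription start site (TSS) of a gene, or inside its annotated body, was collected. This gave 16 peaks, 5 of PHF13 and 11 of EZH2. EZH2 peaks lay at the starts of SNAI2, ZEB2 and PRRX1, whereas no PHF13 peak lay within 5 kb of a start of any of the 8 genes. PHF13 peaks were found inside ZEB2, TWIST1 and TWIST2. SNAI1, SNAI3 and ZEB1 carried no peak of either list at the start or in the body. The share of all protein-coding genes with neither was not computed. A PHF13 peak was at the start or in the body of 31.2% of them, and an EZH2 peak of 30.0%. Both lists had a peak at ZEB2 and at TWIST1, but no PHF13 peak overlapped an EZH2 peak at any of the 8 genes.

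**Figure D1:**
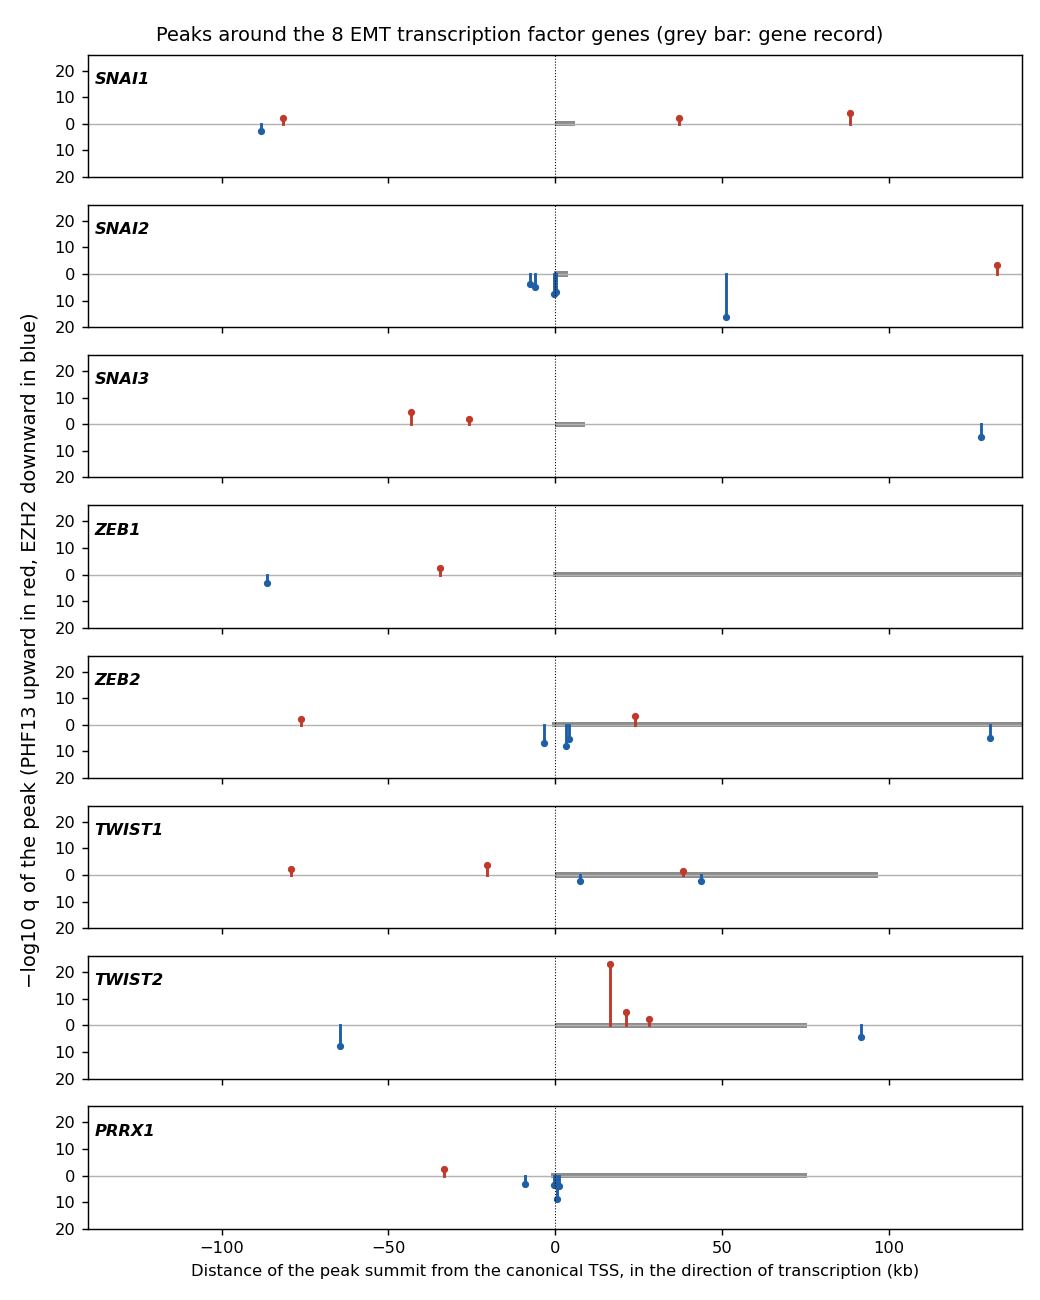
Peaks around each gene. The x axis is the distance of the peak summit from the start of the canonical transcript in kb, positive in the direction of transcription, and the y axis is the −log10 q of the peak, upward in red for PHF13 and downward in blue for EZH2. Grey bars are the annotated gene records, and those of ZEB1 and ZEB2 run past the right edge. Peaks within 100 kb of a TSS, and otherwise the closest, are drawn, with the blue EZH2 peaks of SNAI2, ZEB2 and PRRX1 close to 0 and the tallest red peak inside TWIST2.

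The sequences that carry these observations are 200 bp of GRCh37 centred on a summit, the position of highest coverage in a peak, and are written 5′ to 3′ on the plus strand. Strongest here and below means the highest −log10 q. The first is the strongest PHF13 peak at any of the genes, inside TWIST2, at chr2:239772916-239773115, with capitals marking the only match to the AP-1 site TGACTCA. The others are the strongest EZH2 peaks at ZEB2 (chr2:145274319-145274518) and PRRX1 (chr1:170633570-170633769), with capitals marking each CG dinucleotide. The ZEB2 window holds 25 CG dinucleotides, the PRRX1 window 11 and the TWIST2 window 7.
TWIST2 PHF13: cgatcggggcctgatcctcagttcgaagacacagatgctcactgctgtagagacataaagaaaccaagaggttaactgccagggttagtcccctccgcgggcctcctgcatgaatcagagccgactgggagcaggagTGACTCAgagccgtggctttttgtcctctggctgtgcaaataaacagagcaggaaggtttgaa
ZEB2 EZH2: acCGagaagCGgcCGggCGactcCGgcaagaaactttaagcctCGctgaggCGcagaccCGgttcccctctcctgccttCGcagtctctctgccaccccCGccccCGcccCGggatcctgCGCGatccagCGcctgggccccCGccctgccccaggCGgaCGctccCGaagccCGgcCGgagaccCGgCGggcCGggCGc
PRRX1 EZH2: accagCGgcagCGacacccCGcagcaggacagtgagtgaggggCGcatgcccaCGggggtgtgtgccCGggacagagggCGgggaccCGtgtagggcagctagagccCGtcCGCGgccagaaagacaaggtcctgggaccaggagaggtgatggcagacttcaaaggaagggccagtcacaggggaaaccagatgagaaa

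Genes with a PHF13 peak no farther than 5 kb from a TSS were 0 of the 8 and 4231 of all 20162 protein-coding genes (21.0%). Among the 13272 genes whose canonical start reaches a CpG observed/expected ratio of 0.6, a class that holds 6 of the 8, the share was 24.9%. An EZH2 peak within 5 kb was found at 3 of the 8 (37.5%) and at 4759 of all protein-coding genes (23.6%), or 25.1% of those with CpG-rich starts. With only 8 genes, neither count can be set apart from its background share. Each of the 3 EZH2-marked genes had 2 or more EZH2 peaks within 5 kb, as did 1608 of all protein-coding genes (7.98%). Among the 4759 genes with any EZH2 peak there, that was 33.8%. With only peaks of a −log10 q of at least 5, the EZH2 count within 5 kb was 3, beside 14.3% of protein-coding genes. For PHF13 a stricter limit could not change the count of 0, and the share of protein-coding genes was 6.62%.

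Counting gene bodies as well, PHF13 peaks were found at 3 of the 8 genes, against 31.2% of protein-coding genes. All 3 are longer than 50 kb. Among the 6794 genes of at least 50 kb, 51.9% had a PHF13 peak at the start or in the body, against 3 of the 5 genes of that length here. EZH2 peaks were found at 4 of the 8 genes, SNAI2, ZEB2, TWIST1 and PRRX1, against 30.0% of all protein-coding genes. Of genes of at least 50 kb, 47.5% had one, again against 3 of 5. At a −log10 q of at least 5, PHF13 was left at the start or in the body of 1 gene (TWIST2), beside 11.0% of protein-coding genes, and EZH2 at 3, beside 16.4%. A PHF13 peak that overlaps an EZH2 peak by at least 1 bp occurred at 403 protein-coding genes (2.0%), so 0 of 8 is close to the background.

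The closest peak of each list was measured from the nearest TSS of each gene. For PHF13 the median distance over the 8 genes was 28704 bp, against 35999 bp over all protein-coding genes. For EZH2 it was 35481 bp, against 34292.5 bp. A PHF13 peak lay within 100 kb of 7 of the 8 genes (73.6% of all genes), SNAI2 being the exception at 132451 bp. An EZH2 peak lay within 100 kb of 7 as well (75.2% of all genes), and the exception was SNAI3 at 127613 bp. For PHF13, between 29.5% and 79.2% of protein-coding genes had a peak as close or closer than these genes, and for EZH2 between 10.1% and 80.6%. The order of the genes differed between the lists. From near to far, PHF13 placed ZEB2 first at 11232 bp, then TWIST2, TWIST1, SNAI3, PRRX1, ZEB1 and SNAI1, with SNAI2 last. EZH2 placed SNAI2 and ZEB2 first, with a peak over a TSS, then PRRX1 at 101 bp and TWIST1 at 6490 bp, followed by TWIST2, ZEB1, SNAI1 and SNAI3.

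**Figure D2:**
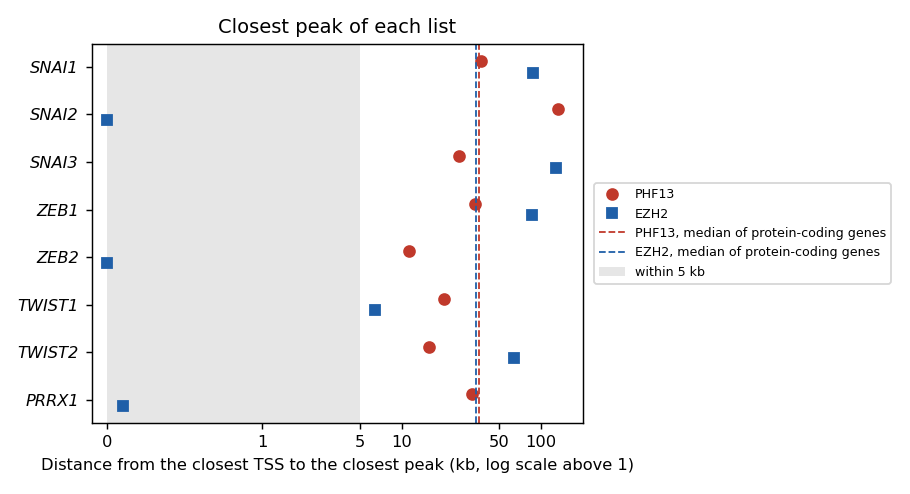
Distance in kb from the nearest TSS to the closest PHF13 peak (red circles) and EZH2 peak (blue squares) for each gene, on an axis that is linear below 1 kb and logarithmic above. Dashed lines are the medians of all protein-coding genes, and the grey band covers 5 kb. The 3 EZH2 squares in the band are SNAI2, ZEB2 and PRRX1, and no red circle is in it.

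The peaks were read as fold enrichment, the ratio of fragments at the summit to the local background after the same small constant was added to both. A fold is therefore a little lower than the plain ratio of the printed fragments and background. The number of fragments and the background were recovered from the fold and the p-value of each peak, and 95% Poisson intervals were computed from the fragments. They cover counting error only and treat the background as fixed. The PHF13 list held 19039 peaks with a median fold of 3.41 and 21 fragments at the median summit. The EZH2 list held 21639 peaks with a median fold of 3.13 and 25 fragments. A peak at the lowest background needed at least 13 fragments to be listed, in both lists. A fold of 2.68 (PHF13) or 2.58 (EZH2) was the lowest listed there, and weaker binding at a gene without a peak was not detectable at this depth.

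SNAI2 (ENSG00000019549, chromosome 8, 49830157 to 49834299, minus strand) encodes SLUG, a repressor of E-cadherin with a role in neural crest migration. It is the shortest of the genes, at 4143 bp. An EZH2 peak at 49834183 to 49834503 covered its most upstream TSS, with a fold of 3.87 (95% interval 2.67 to 5.45, 31 fragments, −log10 q 7.57). The summit lay 398 bp upstream of the canonical start, in an exon of the non-coding gene ENSG00000288761. A second EZH2 peak, at 49833773 to 49833978, lay in the untranslated first exon, 10 bp from the nearest TSS, with a fold of 3.78 (2.57 to 5.37, 29 fragments). The pair had nearly equal folds and overlapping intervals. Farther out, EZH2 peaks lay 5692 and 7228 bp upstream with folds of 3.42 and 3.30. Together the peaks at the starts covered 527 bp within 5 kb of the starts, against a median of 571 bp over genes with such a peak.

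The strongest EZH2 peak in the surroundings of SNAI2 was not at its start. It lay 50808 bp away on the downstream side, at 49782066 to 49783180, was 1115 bp wide and had a fold of 4.33 (3.29 to 5.60, 56 fragments). Its −log10 q of 16.1 stood above 90.8% of the EZH2 list. The sequence under it is GC-rich (69.8% over 500 bp at the summit, CpG ratio 0.756), and SNAI2 is the nearest protein-coding gene. Which gene it belongs to cannot be read from a peak list. SNAI2 was also the gene farthest from any PHF13 peak, and 79.2% of protein-coding genes had one as close or closer.

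SNAI1 (ENSG00000124216, chromosome 20, 48599517 to 48605423, plus strand), the first described repressor of E-cadherin in this family, carried no peak. The closest PHF13 peak lay 36944 bp downstream of its single TSS with a fold of 2.87 (1.76 to 4.44, 18 fragments). The paper that reported PHF13 in these cells, in contrast, describes SNAI1 as bound by PHF13 and shows a browser track there. It also shows histone marks and RNA at SNAI1, and western blots of SNAI1 after PHF13 depletion. The track was not examined here, and a listed peak is a different measure from signal in a track. The closest EZH2 peak lay 87995 bp upstream with a fold of 3.17, nearer to the start of SLC9A8. SNAI3 (ENSG00000185669, chromosome 16, 88744096 to 88752915, minus strand), the least studied of the family, was likewise free of peaks. PHF13 peaks lay 25644 bp upstream, in a coding exon of CTU2, and 43078 bp upstream, in an intron near a start of PIEZO1. They had folds of 2.94 and 4.02, the second in sequence whose median 24-base word occurs 10 times in the genome, and both were closer to the starts of those neighbours than to SNAI3.

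ZEB1 (ENSG00000148516, chromosome 10, 31607424 to 31818742, plus strand) had no peak of either list over a body of 211319 bp, nor within 5 kb of any of its 21 TSSs. Of the 1381 protein-coding genes at least as long, 86.6% had a peak of at least 1 list at the start or in the body. The closest PHF13 peak was 144 bp wide, the shortest width in that list, and lay 33549 bp upstream with a fold of 3.25 (1.94 to 5.16, 16 fragments). The median 24-base word in that peak occurs 3153 times in the genome, so its position may be uncertain. Copy number at the length of the sequenced fragments was not measured. The closest EZH2 peak lay 85571 bp upstream with a fold of 3.32 (2.01 to 5.21, 17 fragments).

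ZEB2 (ENSG00000169554, chromosome 2, 145121931 to 145278624, minus strand) is the paralog of ZEB1, with a body of 156694 bp. It is annotated with 46 TSSs spread over 124596 bp, more than any other of the 8, which gives a peak more places to be near. An 863 bp EZH2 peak at 145274131 to 145274993 covered TSSs about 3 kb into the gene, with its summit 3267 bp downstream of the canonical start. Its fold was 2.60 (2.0 to 3.32), from 62 fragments over a background of 23.2, and its summit window is the GC-rich ZEB2 sequence printed above (77.4% GC over 500 bp). Next to it, a 306 bp EZH2 peak at 145273477 to 145273782, in an untranslated exon, had a fold of 2.36 (1.79 to 3.05, 55 fragments over 22.8). These peaks thus had more fragments than the median EZH2 summit but a low fold, since the local background there was high. Their folds stood above 17.0% and 7.37% of the EZH2 list, whereas their −log10 q values of 7.78 and 5.32 stood above 80.1% and 67.0%.

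Another EZH2 peak lay 2296 bp upstream of the first ZEB2 start, in an intron of the long non-coding RNA gene LINC01412, with a fold of 3.01 (2.19 to 4.04, 42 fragments). The last lay in a coding exon near the far end of the body, 145147234 to 145147400, with a fold of 3.56 (2.33 to 5.23, 24 fragments). The EZH2 peaks covered 1345 bp within 5 kb of the ZEB2 starts, more than in 74.0% of genes with such a peak. The PHF13 peak of ZEB2 was 169 bp wide, at 145253587 to 145253755, where the annotation also places an exon of the non-coding gene ENSG00000279166. It lay 11232 bp from the nearest TSS and 19722 bp from the closest EZH2 peak, and had a fold of 3.63 (2.23 to 5.63, 18 fragments).

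TWIST1 (ENSG00000122691, chromosome 7, 19060614 to 19157259, minus strand) is a regulator of mesoderm and cranial suture formation. Its record spans 96646 bp because of 1 long transcript, whereas the canonical transcript spans 2169 bp. All 3 of its peaks lay in introns of the long transcript and none in the canonical one. The EZH2 peaks lay 6490 bp and 42786 bp from the nearest TSS, with folds of 2.71 (1.67 to 4.21, 18 fragments) and 2.95 (1.73 to 4.75, 15 fragments). The PHF13 peak lay 37498 bp from it, with a fold of 2.67 (1.59 to 4.24, 16 fragments), and 5063 bp from the farther EZH2 peak. These were the weakest of the 16 peaks, with −log10 q of 1.70 for PHF13 and 2.09 for both EZH2 peaks.

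TWIST2 (ENSG00000233608, chromosome 2, 239756673 to 239832230, plus strand), a paralog of TWIST1 active in dermal and other mesenchyme, held 3 PHF13 peaks and no EZH2 peak in its body. The strongest, at 239772679 to 239773254, was 576 bp wide and lay in an intron 15822 bp downstream of the nearest TSS. It had a fold of 6.63 (4.97 to 8.68), from 51 fragments over a background of 6.84, and a −log10 q of 23.02. In the PHF13 list its fold stood above 97.8% of peaks, its −log10 q above 96.2% and its width above 98.4%. The other PHF13 peaks in the body lay 20844 bp and 27916 bp from the TSS, with folds of 3.54 (2.36 to 5.13, 26 fragments) and 2.99 (1.81 to 4.68, 17 fragments). The 3 summits lay within 11836 bp of each other. Of the 4 other PHF13 peaks in these gene bodies, 2 had intervals that overlapped that of the strongest. EZH2 peaks lay on both sides of TWIST2, 64472 bp upstream with a fold of 4.53 (2.99 to 6.60, 25 fragments) and 91450 bp downstream of a TSS with a fold of 2.92.

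PRRX1 (ENSG00000116132, chromosome 1, 170631869 to 170708562, plus strand) had 3 EZH2 peaks around its starts. The strongest, 170633377 to 170633994, was 618 bp wide, with its summit 398 bp downstream of the canonical start, in an intron. The sequence around that summit is printed above. This peak had a fold of 3.40 (2.49 to 4.54), from 44 fragments over 12.2. Its −log10 q of 8.89 was the highest of the 11 EZH2 peaks. On the upstream side, a 169 bp peak in an untranslated exon, 101 bp from a TSS, had a fold of 2.56 (1.77 to 3.58, 32 fragments). On the downstream side, a 363 bp peak 884 bp from a TSS had a fold of 2.59 (1.82 to 3.59, 34 fragments). Together they covered 1150 bp within 5 kb of the starts, more than in 68.2% of genes with an EZH2 peak there. The closest PHF13 peak lay 31764 bp upstream with a fold of 3.25.

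**Figure D3:**
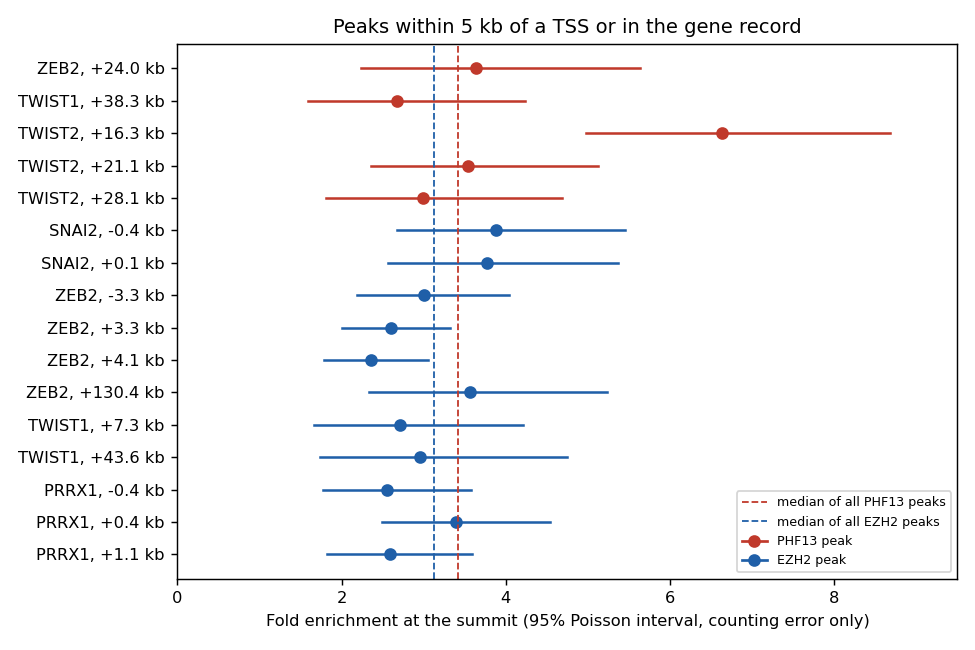
Fold enrichment at the summit of each of the 16 peaks, labelled with the gene and the distance of the summit from the canonical start in kb. Horizontal lines are 95% Poisson intervals from the fragments of 1 library, and dashed lines are the medians of the PHF13 list (red) and the EZH2 list (blue). All but the PHF13 peak of TWIST2 at 6.63 lie between 2.36 and 3.87.

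Within each list, the median fold of the peaks at these genes was near that of the whole list. The 5 PHF13 peaks had a median fold of 3.54 (range 2.67 to 6.63), against 3.41 for the whole list, and 1 of 5 reached a −log10 q of 5, as did 30.4% of the list. The 11 EZH2 peaks had a median fold of 2.95 (range 2.36 to 3.87), against 3.13. By −log10 q they stood higher, since 7 of 11 reached that limit, against 35.8% of the list. No comparison with only the listed peaks near gene starts was made. Peaks at 1 gene share a region and a local background and are not replicates. The EZH2 peaks with the highest −log10 q at PRRX1 (8.89), ZEB2 (7.78) and SNAI2 (7.57) had folds of 3.40, 2.60 and 3.87 with overlapping intervals, so the genes were not set in an order. None of the 11 EZH2 peaks was wider than 1 kb, whereas 1659 peaks of the EZH2 list were. By the median 24-base word around the summit, all 16 peaks lie in sequence found once in the genome.

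The base composition of the canonical starts divided the genes in the same way as EZH2 did. GC content over 1 kb at the canonical TSS was 49.3% at ZEB2, 51.0% at SNAI2 and 56.7% at PRRX1. These are the 3 genes with an EZH2 peak within 5 kb of a start. At the other 5 genes it was 68.6% at ZEB1, 68.7% at SNAI3, 69.1% at TWIST2, 69.8% at SNAI1 and 70.6% at TWIST1. By canonical start the groups thus do not overlap. The canonical start of ZEB2, however, is not one that an EZH2 peak covers. The strongest EZH2 peak of ZEB2 has its summit 3267 bp downstream, with 77.4% GC over 500 bp. Whether the division holds at the starts under that peak was not measured. The median at canonical starts over protein-coding genes was 61.3%. Over the genome the relation ran the other way: an EZH2 peak within 5 kb was found at 28.2% of genes with a start GC at or above the median and at 19.1% of genes below it. This division was noticed in the values of the 8 genes and is a description.

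The CpG observed/expected ratio was less clearly divided, from 0.527 at ZEB2, 0.585 at PRRX1 and 0.767 at SNAI2 to between 0.732 (SNAI3) and 0.859 (TWIST1) at the others. The composition under the EZH2 peaks was not low. Over 500 bp at the summit, GC content of the 8 EZH2 peaks within 5 kb ran from 42.2% to 77.4%, and 6 of the 8 had a CpG ratio of at least 0.6, as did 49.4% of the 6479 EZH2 peaks within 5 kb of a protein-coding start and 20.7% of all EZH2 peaks. At ZEB2 the CpG-rich sequence lies about 3 kb inside the canonical start, and its GC content is higher than at the start itself.

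**Figure D4:**
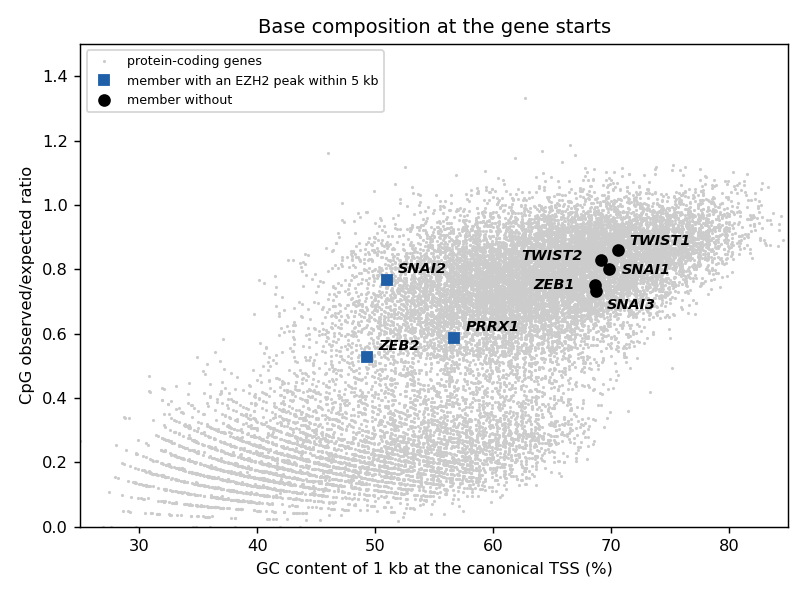
GC content in percent (x axis) and CpG observed/expected ratio (y axis) of 1 kb at the canonical TSS. Grey points are protein-coding genes, blue squares are ZEB2, SNAI2 and PRRX1, which have an EZH2 peak within 5 kb, and black circles are the other 5 genes, which lie between 68.6% and 70.6% GC.

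Recognition sequences of the factors themselves were then sought in the 200 bp at each summit, on both strands. CAGGTG, the E-box bound by SNAI and ZEB proteins, occurred in 0 of the 5 PHF13 and 1 of the 11 EZH2 peaks at these genes, the one in the first exon of SNAI2. It occurred in 18.8% of all PHF13 and 20.9% of all EZH2 windows. CATATG, an E-box bound by TWIST proteins, occurred in none of the 16 peaks (3.53% and 2.69% of the lists). TAATTA, a homeodomain site, occurred in 1, the EZH2 peak over the SNAI2 start (3.32% and 2.46% of the lists). The AP-1 site TGACTCA, whose reverse complement is TGAGTCA, occurred in 1 of 5 PHF13 peaks and 0 of 11 EZH2 peaks, against 11.2% and 2.31% of the lists. That match lies 37 bases from the TWIST2 summit, in the capitals of the sequence printed above. A match is a string of letters and does not show that the factor binds.

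The wider EMT program was described with 5 further lists. In the list of 15 other EMT-inducing factors, 9 had an EZH2 peak within 5 kb and 7 a PHF13 peak, with 1 gene having both. The highest −log10 q of EZH2 was at GSC, the homeobox gene goosecoid (26.6, fold 4.13), and at LEF1, a partner of β-catenin (25.8, fold 3.22). For PHF13 it was at FOXM1, a factor of the cell cycle (7.16, fold 4.66), and at TCF3, which encodes E2A proteins that pair with TWIST1 (6.44, fold 4.22). The median distance to the closest EZH2 peak in this list was 601 bp, against 35481 bp for the 8 genes above and 34292.5 bp over all protein-coding genes. An EZH2 peak within 5 kb was at 9 of 15 genes here and 3 of 8 above, so the medians fall on either side of that limit. Whether the lists differ was not tested.

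Of 15 factors that hold the epithelial state, 5 had an EZH2 peak within 5 kb and 4 a PHF13 peak, and none had both. OVOL1 and OVOL2, which repress ZEB1, had EZH2 peaks over a start with −log10 q of 36.5 and 21.8 and widths of 2218 and 1728 bp. Both had a higher −log10 q and a greater width than any EZH2 peak within 5 kb of the 8 genes, although the fold of 2.93 at OVOL2 was lower than that of several of them. For PHF13 the highest −log10 q was 5.61 at ELF3, an epithelial ETS factor. Of the 9 measured microRNA genes whose products target ZEB or SNAI transcripts, PHF13 peaks were within 5 kb at 4 and EZH2 peaks at 2. MIR200A, MIR200B and MIR429, which lie in 1 cluster, share a single PHF13 peak (fold 3.12, −log10 q 2.73), so the 4 genes rest on this peak and 1 at MIR30A. MIR34B and MIR34C, neighbours that target SNAI1, share a 1025 bp EZH2 peak (fold 5.02, −log10 q 22.6).

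Among 21 epithelial genes known as targets of these factors, PHF13 peaks were within 5 kb at 12, EZH2 peaks at 10 and both at 7. EZH2 had its highest −log10 q at TJP1, the gene of the junction protein ZO-1 (39.7, fold 5.22), and at DSP, which encodes desmoplakin (24.9, fold 3.77). PHF13 had its highest at PKP3, the gene of plakophilin 3 (12.7, fold 4.10). Among 18 mesenchymal genes, 9 had an EZH2 peak and 6 a PHF13 peak, with 3 having both. EZH2 peaks covered starts of LOX, a collagen crosslinking enzyme (fold 4.66), and of FN1, fibronectin (fold 3.45). For PHF13, MMP2, a matrix protease, had the highest −log10 q (5.18). The counts of the protein-coding lists stand beside 21.0% (PHF13) and 23.6% (EZH2) of protein-coding genes, and 1075 of all 20162 had both. The microRNA genes are not protein-coding, and no share over all microRNA genes was computed for them.

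**Figure D5:**
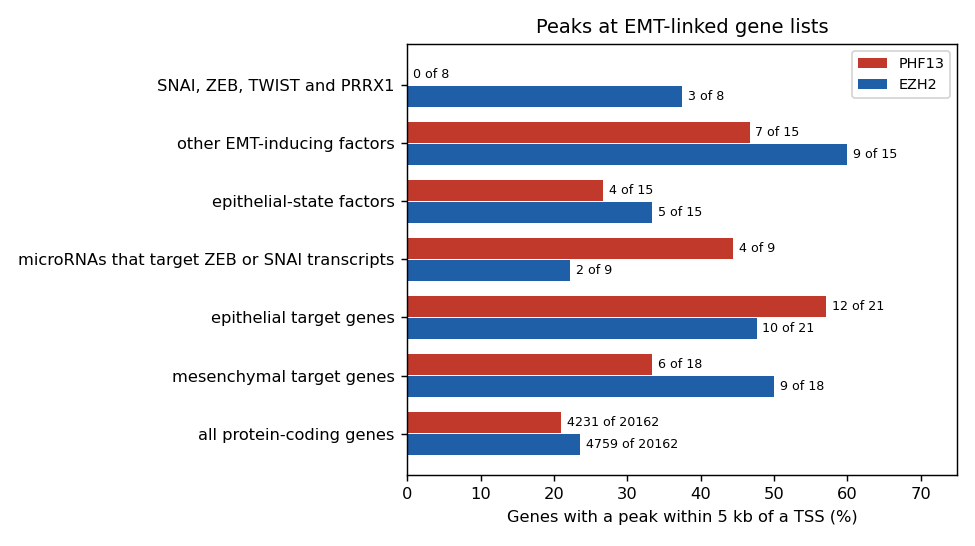
Percent of genes with PHF13 (red) or EZH2 (blue) peaks at most 5 kb from a TSS, for the 8 genes, for the 5 further EMT lists and for all protein-coding genes, with the counts beside the bars. The 8 genes, the smallest list, are the only one with no PHF13 peak within 5 kb, and 3 of them have a PHF13 peak in the body.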

How the data were processed

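ChIP-seq peaks of PHF13 and EZH2 in PANC-1 cells were analysed, 1 library each. Per the labels, the authors used Trim Galore 0.4.1, Bowtie2 2.4.1, Picard, MACS2 2.2.7.1 and deepTools 3.5.0 on hg19, and called peaks against the input. No filter on mapping quality is stated. The deposited lists give the fold enrichment at the summit (a ratio), the p-value and q-value as −log10, an integer score and the summit offset. The weakest −log10 q is 1.30 in both lists, looser than the limit stated for PHF13, and the EZH2 list is in narrow format although broad calling is described. The lists hold no read totals, and those in the study's quality table were not used here.

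Peaks were placed on GRCh37 with GENCODE release 44 mapped to it, in 1-based coordinates. Every annotated transcript contributed its 5′ end as a TSS, and distances run from the peak edge. The fold was taken as fragments plus 1 over background plus 1. Fragments and background were solved from fold and p within a relative error of 0.0001, for 100% of peaks. Poisson intervals are 95% and cover counting error only. The share of protein-coding genes with the same feature is given for the counts of each list within 5 kb, with bodies, and within 100 kb. No such share was computed for genes with a peak of neither list, or of both lists when bodies are counted. None was computed for the microRNA genes. Copy number was the median count of the 24-base words in 100 bp at the summit. The placing and solving steps were tested on simulated peaks. Python 3.11.15, pandas 2.3.3 and scipy 1.17.1 were used.

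All 8 genes are described. For the other lists, at most 4 genes per antibody, those with the highest −log10 q, could be named. The genes, lists and windows were chosen with earlier results of these data known. MIR205 and MIR203A, on the microRNA list, were not measured. The input was not analysed here. The sequence at SNAI2 is not reported here.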

Additional observations from a re-analysis of the deposited data

How the results depend on the processing

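No paired analysis was possible because each antibody has 1 library and the result comes from no test. Of 50 alternative values for 8 results, 44 were labelled as within 1.5 times the reported value. The reported value was 0 for PHF13 within 5 kb, for the overlap of the lists and for the median EZH2-covered length. There no ratio exists, 0 again was labelled the same, and most settings could not raise a 0. A count of 3 that fell to 2 was also labelled the same. The tally is therefore not a measure of stability. The count of 3 genes with EZH2 within 5 kb of a TSS was the same at −log10 q of at least 3 and 5. It was also the same with coding or single starts and with a 1 kb window, and rose to 4 with a 10 kb window. For PHF13 those stricter settings keep only a part of the same peaks or starts, so the count of 0 could not change. The 10 kb window could have raised the PHF13 count, which stayed at 0. The share of all protein-coding genes with such a peak moved with the setting, for PHF13 from 21.0% to 14.0% at q of at least 3, 6.62% at 5 and 27.9% in 10 kb, and for EZH2 from 23.6% to 19.8%, 14.3% and 29.8%. At −log10 q of at least 5, a PHF13 peak at the start or in the body remained at 1 gene instead of 3, beside 11.0% instead of 31.2% of all genes. The median distance to the closest PHF13 peak went from 28704 bp to 65684.5 bp at q of at least 3 and 373987 bp at 5, and that to the closest EZH2 peak from 35481 bp to 75021.5 bp and 92981.5 bp, since fewer peaks were kept. The median EZH2-covered length at the starts was 0 bp within 5 kb and 91 bp within 10 kb. With bodies taken from the canonical transcript only, an alternative added after seeing the data, PHF13 was at 2 genes (29.9% of all genes) and EZH2 at 3 (28.7%), since TWIST1 then had no peak. Depth limits what can be listed to summits of at least 13 fragments, and with 1 library per antibody no spread between libraries is known.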

Other observations

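Peaks within 100 kb often lay nearer to another gene than to the EMT factor. The PHF13 peak 78860 bp upstream of TWIST1 and the one 20232 bp upstream both had FERD3L, a basic helix-loop-helix gene, as the nearest protein-coding gene, at 51075 bp and 7232 bp. The median 24-base word in these peaks occurs 10 and 12 times in the genome. The PHF13 peak 88291 bp downstream of SNAI1 had TRERNA1, a non-coding RNA gene, as its nearest gene (29767 bp) and UBE2V1 as its nearest protein-coding gene (40125 bp). Of the 16 PHF13 peaks within 100 kb or closest to the 8 genes, 12 were single-copy by the median 24-base word, and of the 20 EZH2 peaks all 20 were. In the same peaks the AP-1 site occurred in 4 of 16 PHF13 windows (11.2% of the whole list) and 0 of 20 EZH2 windows (2.31%), and the SNAI and ZEB E-box in 2 of 16 (18.8%) and 6 of 20 (20.9%).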
